A study of Mus musculus with 3 samples.

Results

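The distal intergenic windows of a RUNX3-FLAG ChIP-seq peak list were the 252 of 1000 windows (25.2%, 22.6 to 28.0, Wilson 95% interval) that lay outside every gene and over 30 kb from every transcription start site (TSS) in the deposited gene tables. A window is the interval that the list gave for a peak, whose end lay 100 bp after its start. The rank of a window is its place in the list, with 1 for the first. All windows had the same length, so they do not give the extent of a peak. The study reported many more Runx3 peaks than this list holds. The shares below therefore describe the windows of the list and not all Runx3 peaks. A window was a member when each of its deposited neighbouring genes placed it upstream of a start or downstream of an end and the smallest distance to a start exceeded 30 kb. The other 748 windows comprised 195 intergenic windows at 0.5 to 30 kb from a TSS (near intergenic), 299 windows inside genes and over 0.5 kb from a TSS (intragenic) and 254 windows within 500 bp of a TSS (start-site). Of the 625 windows whose neighbouring genes all placed them outside, 40.3% were distal.

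The study examined where Runx3 associates with the genome of chondrocytes from the superficial zone (SFZ) of articular cartilage, the layer that faces the joint cavity. Cells of C57BL/6 mice were transfected by lipofection with a vector for 3xFLAG-tagged Runx3, in all 3 libraries alike, and per the study's methods SFZ cells came from pups within days of birth. Chromatin was taken with an antibody to FLAG (RUNX3-FLAG), with an anti-mouse IgG antibody (IgG) or without an antibody (input), with 1 library per group. The windows therefore report a tagged protein made from a vector, no value had a replicate error, and intervals below cover counting error over windows only. The RUNX3-FLAG library had 2 lists, the main one used here and another that also named IgG. No read counts were used and the depth is unknown, and the cell type could not be set against marker genes because no expression was measured in these libraries.

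Runx proteins are transcription factors that bind DNA through a runt domain together with a beta subunit and that act in cartilage, bone and blood cells. Regulatory DNA far from any gene start often holds enhancers, which can act on genes across long distances and need not act on the nearest one. A flanking gene below is therefore only the gene next to a window, and no target was measured.

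Sequences of selected distal windows are given first, because the results turn on the short Runx motif that they do or do not hold. The motif was searched as TGNGGN, with C or T at each N, on both strands, and capitals mark each match, which reads as its reverse complement where it lies on the other strand. All are 5′ to 3′ on the plus strand of mm9. The first set holds 6 of the best ranked windows, among them 2 without a match.
Rank 14, 2610528K11Rik to Pbx3, chr2:33946237-33946337: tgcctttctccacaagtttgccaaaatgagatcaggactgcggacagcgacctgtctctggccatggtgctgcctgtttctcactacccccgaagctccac
Rank 20, Lhfpl3 to Srpk2, chr5:22938795-22938895: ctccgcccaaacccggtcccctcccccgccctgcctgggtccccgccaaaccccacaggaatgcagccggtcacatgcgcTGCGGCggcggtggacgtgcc
Rank 30, Stard13 to Vmn2r18, chr5:152171373-152171473: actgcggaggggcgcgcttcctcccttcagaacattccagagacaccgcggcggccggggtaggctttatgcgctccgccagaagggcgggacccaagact
Rank 32, Uaca to Tle3, chr9:60861037-60861137: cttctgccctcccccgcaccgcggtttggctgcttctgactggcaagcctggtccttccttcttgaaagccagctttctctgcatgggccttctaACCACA
Rank 52, Dhrs3 to Tnfrsf1b, chr4:144539465-144539565: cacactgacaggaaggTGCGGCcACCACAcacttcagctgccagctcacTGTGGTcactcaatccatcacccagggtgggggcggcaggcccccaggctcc
Rank 64, Hes1 to Cpn2, chr16:30185125-30185225: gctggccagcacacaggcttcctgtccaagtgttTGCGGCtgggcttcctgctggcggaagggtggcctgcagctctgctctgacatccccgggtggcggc
The next set holds the 3 windows farthest from a deposited TSS.
Rank 439, Lrrn3 to Dnajb9, chr12:44073868-44073968: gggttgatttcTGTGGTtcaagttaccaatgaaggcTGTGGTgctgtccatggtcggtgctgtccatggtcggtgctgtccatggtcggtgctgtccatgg
Rank 91, Slc8a1 to AW548124, chr17:82857404-82857504: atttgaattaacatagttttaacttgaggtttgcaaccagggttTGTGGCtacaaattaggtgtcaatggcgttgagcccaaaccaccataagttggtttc
Rank 542, Cdh8 to Cdh11, chr8:104623170-104623270: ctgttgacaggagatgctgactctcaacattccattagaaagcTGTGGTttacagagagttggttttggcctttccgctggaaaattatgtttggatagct
The last set shows a window at a start that the deposited table did not hold (Scaf8), the best ranked window with the AP-1 motif (Map4k3 to Tmem178), a window of the tight Mid1 group, the window between the cartilage proteoglycan genes Prelp and Fmod, and the window before Acvr2a.
Rank 562, Scaf8 start, before Tiam2, chr17:3114911-3115011: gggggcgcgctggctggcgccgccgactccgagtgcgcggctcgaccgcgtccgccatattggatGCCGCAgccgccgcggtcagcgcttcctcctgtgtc
Rank 70, Map4k3 to Tmem178, chr17:81171977-81172077: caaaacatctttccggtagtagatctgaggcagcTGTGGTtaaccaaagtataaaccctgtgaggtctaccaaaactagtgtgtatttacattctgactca
Rank 75, past Mid1, chrX:166435087-166435187: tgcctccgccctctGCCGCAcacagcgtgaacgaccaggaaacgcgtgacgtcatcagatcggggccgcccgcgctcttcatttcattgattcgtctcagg
Rank 327, Prelp to Fmod, chr1:135877907-135878007: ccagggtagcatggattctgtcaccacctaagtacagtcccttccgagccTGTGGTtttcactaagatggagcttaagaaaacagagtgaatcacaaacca
Rank 356, Zeb2 to Acvr2a, chr2:48375563-48375663: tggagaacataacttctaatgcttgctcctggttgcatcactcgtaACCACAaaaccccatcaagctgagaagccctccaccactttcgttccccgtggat

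The Runx motif was present in 187 of the 252 distal windows (74.2%, 68.5 to 79.2), beside 66.1% of all 1000 windows. Among the distal windows, 125 held 1 match, 54 held 2, 7 held 3 and 1 held 5. The window with 5 matches had rank 470 and lay 37.1 kb from Foxd1, a forkhead transcription factor gene. The windows with 3 matches included rank 52 beside Dhrs3, rank 369 between Col6a2 and Col6a1, and rank 568 beside Ets1.

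Against the other classes, the share was higher than in start-site windows and did not differ by the test from the rest. Start-site windows held the motif in 53.9%, a difference of 20.3 percentage points (11.9 to 28.2; Fisher's exact test, two-sided, adjusted p = 6.52e-06 over 3 comparisons). Near intergenic windows held it in 66.2%, a difference of 8.05 points (-0.45 to 16.6; exact test, adjusted p = 0.112). Intragenic windows held it in 69.6%, a difference of 4.64 points (-2.93 to 12.0; exact test, adjusted p = 0.255). The median GC content was 50.5% in distal and in intragenic windows, 53.5% in near intergenic and 65.3% in start-site windows, and its part in the difference was not tested.

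**Figure D1:**
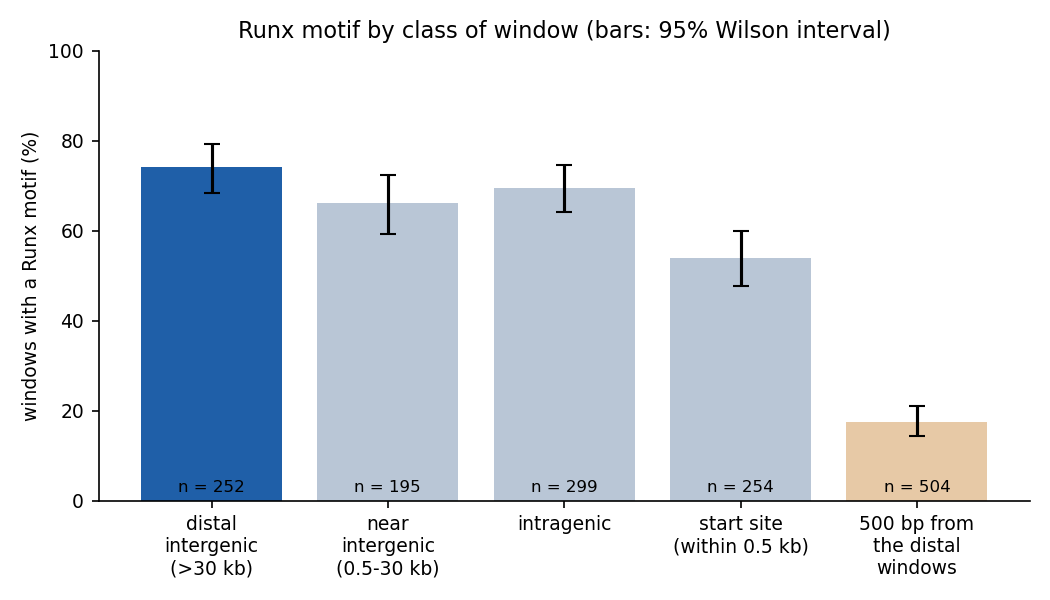
Share of windows with at least 1 Runx motif (vertical axis, %) in the 4 classes of window and in equally long stretches that lie 500 bp to either side of the distal windows, with 95% Wilson intervals. The distal bar stands at 74.2%, the start-site bar at 53.9% and the flanks at 17.5%.

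The motif was more frequent in the distal windows than beside them. The study recovered this spelling, already predicted for Runx proteins, by a motif search in its top 1000 Runx3 peaks. Per its methods, the search used 100 bp around each peak center. This list also holds 1000 windows, and each end lay 100 bp after its start. Both numbers match, but the sources used here do not state whether those peaks are the windows of this list. If they are, a higher share in windows than in flanks was largely built in. The flank tests and the centring below would then describe the windows without being independent evidence for the motif. At 500 bp to the left 44 of 252 flanks (17.5%) held it, and the same number did so to the right. A total of 152 distal windows held the motif where their left flank did not, and 9 showed the opposite (exact McNemar test, adjusted p = 2.32e-34). To the right the numbers were 156 and 13 (exact McNemar test, adjusted p = 2.67e-32). In the intergenic gaps around the distal windows, cut into 956572 consecutive tiles of the window length over 99.4 Mb, 13.3% of tiles held the motif. Of the 259 matches in distal windows, 136 (52.5%) lay within 20 bp of the centre, and 50.7% of those in the other windows did.

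The 4 spellings of the motif were used unequally. TGTGGT made up 57.9% (51.8 to 63.8) of the matches in distal windows and 45.0% (41.1 to 48.9) in the other windows, while TGCGGT made up 12.4% and 23.5%. In the flanks of the distal windows TGTGGT took 44.2% of matches to the left and 45.1% to the right, and TGCGGT took 7.69% and 9.80%. TGTGGC took 44.2% and 39.2% there, against 20.5% in distal and 19.1% in the other windows. The flanks held only 52 and 51 matches. Matches in 1 window are not independent, and no test was made of these shares.

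**Figure D2:**
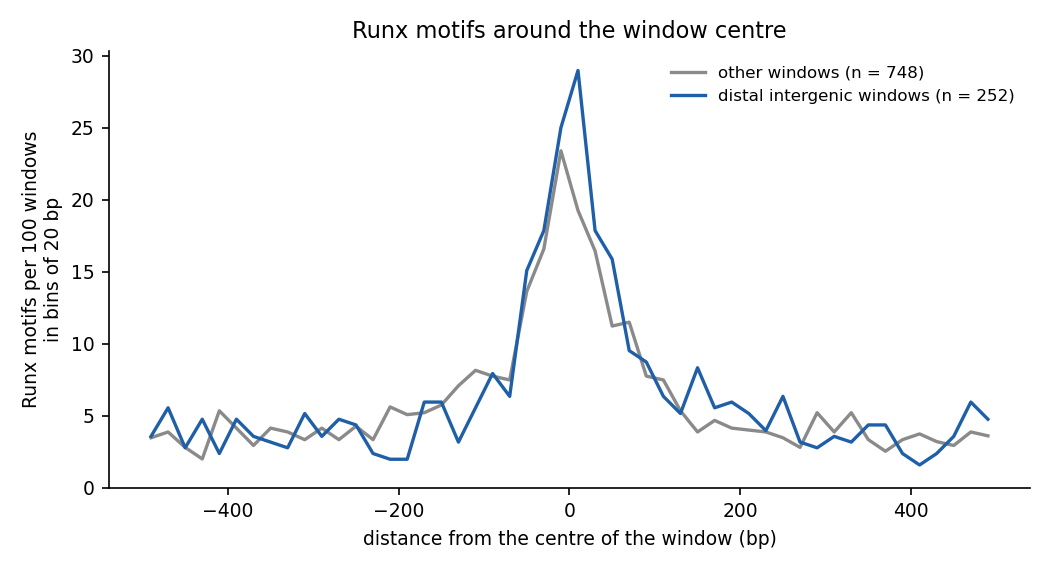
Runx motif matches per 100 windows in bins of 20 bp (vertical axis) by distance from the window centre in bp (horizontal axis) for the 252 distal and the 748 other windows. Both lines rise at the centre, where 136 of the 259 matches inside the distal windows lie within 20 bp.

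Within the distal windows the motif share did not differ detectably with distance, gap or rank. It was 77.6% over 100 kb from a TSS and 71.3% nearer (difference 6.26 points, -4.63 to 16.7). In gaps of at least 500 kb it was 80.6%, and 71.9% in narrower ones (difference 8.69 points, -3.90 to 19.1). In the best ranked 33.3% of the list it was 78.8%, and 72.1% later (difference 6.66 points, -5.24 to 17.03). The adjusted p was 0.312 in each of these 3 two-sided Fisher's exact tests.

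Distal windows lay at a median of 93.8 kb from the nearest TSS (quartiles 57.0 and 172 kb, range 30.2 to 1237 kb). There were 49 at 30 to 50 kb, 87 at 50 to 100 kb, 107 at 100 to 500 kb and 9 farther out. The nearest start lay on either side alike, with 127 windows upstream and 125 downstream of it. The limit cut a continuous range, since the windows just inside lay at 30.2 kb (rank 611, 4732473B16Rik), 30.5 kb (rank 171, Cops8) and 30.6 kb (rank 578, Sema4f), and those just outside at 29.8 kb (rank 803, Gm1968), 29.7 kb (rank 144, 1200004M23Rik) and 29.5 kb (rank 41, Rbm9). Far from a start was not always far from a gene, because 17 windows lay within 10 kb and 45 within 30 kb of the edge of a flanking gene. For example, the window of rank 664 lay 4.57 kb past the end of Col5a3, a fibrillar collagen gene.

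The farthest window was printed above. At rank 439 it lay 1237 kb from the nearest deposited start, between Lrrn3, a leucine-rich repeat protein of neurons, and Dnajb9, a chaperone of the endoplasmic reticulum, in a gap of 3095 kb, and it held 2 Runx motifs. Rank 91 lay 720 kb from the start of Slc8a1, a sodium-calcium exchanger. Rank 542 lay 686 kb from Cdh11, a cadherin of mesenchymal cells, on the side that faces Cdh8. Rank 950 lay 656 kb from Inhba, which encodes the activin beta A subunit, and rank 186 lay 633 kb from Prkacb, a catalytic subunit of protein kinase A. All 5 held the motif, as did 8 of the 9 windows over 500 kb.

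**Figure D3:**
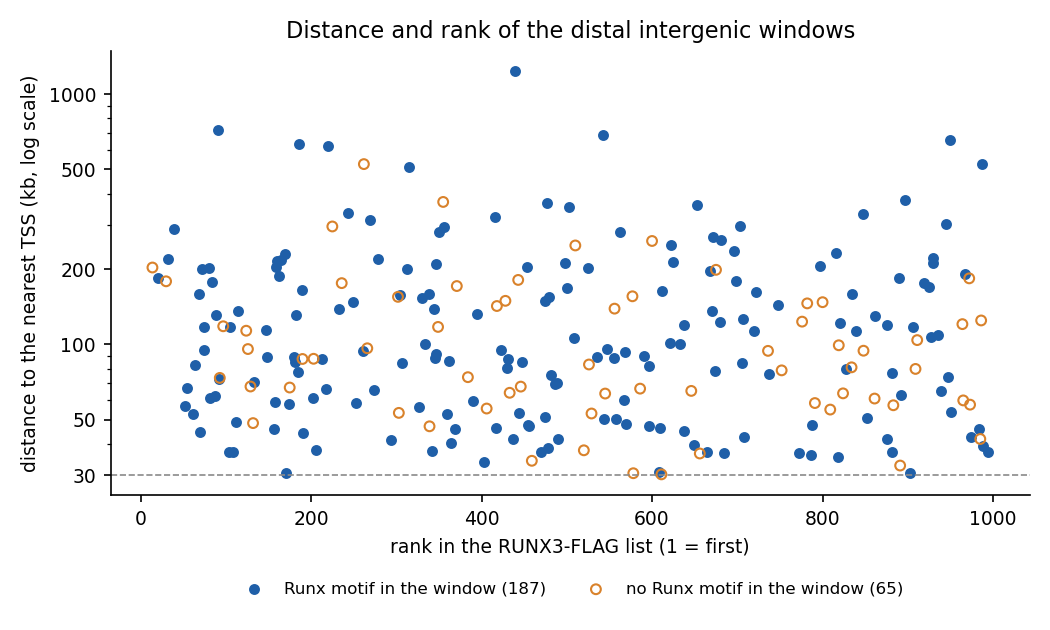
Distance to the nearest deposited TSS (vertical axis, kb, log scale) against rank in the main list (horizontal axis) for the 252 distal windows, filled where the window holds a Runx motif (187) and open where it does not (65). The dashed line is the limit of 30 kb, and open points reach 525 kb, with the 7 farthest windows all filled.

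By rank the distal windows resembled the whole list, with none among the first 10 and 23 among the first 100. The best ranked 33.3% of the list held 80 of them (31.7%), the next 33.3% held 93 and the rest 79. The difference from the other windows was -2.08 points (-8.52 to 4.76; Fisher's exact test, two-sided, p = 0.589). The median rank was 480.5 and the best was 14.

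The 10 best ranked distal windows had the following flanking genes. Rank 14 lay between 2610528K11Rik, at 203 kb, and Pbx3, a homeobox partner of Hox proteins whose end was 81.1 kb away, and it held no Runx motif. Rank 32 lay between Uaca, at 219 kb from its start, and Tle3, a Groucho co-repressor that Runx proteins are known to bind, at 359 kb. Rank 54 lay 66.8 kb from the nearest deposited start, between Lhx2, a LIM homeobox gene, and Nek6, a mitotic kinase. Rank 64 lay 82.4 kb from the start of Cpn2 and 117 kb past the end of Hes1, a repressor induced by Notch signals. Rank 52 lay 56.5 kb from the start of Dhrs3, a retinaldehyde reductase, on the side of Tnfrsf1b, a receptor for tumor necrosis factor. The other members among the 10 best were rank 20 (Lhfpl3 to Srpk2), rank 30 (Stard13 to Vmn2r18, no motif), rank 39 (Defb7 to EG574083), rank 61 (Nmur1 to Ptma) and rank 69 (Nudt4 to Eea1). In GENCODE, another gene annotation used further below, rank 14 lay inside C230014O12Rik and rank 20 lay inside 5031425E22Rik, 0.892 kb from its start. Rank 30 lay inside D730045B01Rik, 0.324 kb from its start, and rank 39 lay 0.102 kb from the start of Gm10060, a pseudogene.

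The second list of the same library, named for IgG, contained 224 of the 252 distal windows (88.9%, 84.4 to 92.2) by at least 1 bp, beside 91.2% of all windows. The other windows were shared in 91.98% (difference -3.09 points, -7.89 to 0.87; Fisher's exact test, two-sided, p = 0.157). Counting only identical windows as shared, the difference was -7.64 points and passed the test (exact test, adjusted p = 0.0254). Both lists came from 1 library and ended at rank 1000, so this overlap is not independent evidence, and a window near the end of one list could fall past the end of the other. The median difference in rank was 7 and the largest 543, at the window of rank 303 between AU040320 and Sfpq, which had rank 846 in the second list. The 28 windows without a partner included rank 75 and rank 97 at Mid1, rank 104 beside Vegfa and rank 202 between Reep3 and Nrbf2. Of these 28, 10 had ranks after 900 and 18 held the Runx motif. The second list had 249 distal windows of its own, of which 90.0% were shared.

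Both flanking genes were given for 245 distal windows, and the gap between them had a median of 291 kb (range 9.71 to 3760 kb). Around the near intergenic windows it was 52.0 kb. A gap of at least 500 kb, called a gene desert here, held 67 of the 245 (27.3%, 22.1 to 33.2), and 25 lay in gaps of at least 1000 kb. Only 5 of the 195 near intergenic windows (2.56%) lay in such a desert. All these gaps are between deposited genes, and with GENCODE protein-coding genes the distal windows in a desert numbered 42. A wide gap makes room for a distance over 30 kb, so the rule itself favors wide gaps, and no test was made. Both flanking genes turned their starts to the window in 67 cases, both their ends in 66 and 1 of each in 112. Near intergenic windows had both starts in 74 cases and both ends in 15. The rule favors this difference too, because a near intergenic window must have a start within 30 kb and a distal window must not. It was not tested.

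The widest gap, of 3760 kb on chromosome 12 between Ywhaq, a 14-3-3 protein gene, and Taf1b, a subunit of an RNA polymerase I factor, held rank 892 at 63.0 kb from Ywhaq and rank 93 at 73.5 kb from Taf1b. These 2 windows were 3624 kb apart, one near each side. The gap of 3701 kb between Zeb2, a zinc finger repressor, and Acvr2a, a receptor for activins, held rank 356 at 294 kb before the Acvr2a start. That of 3217 kb between Cdh8 and Cdh11 held rank 542. In the gap of 3129 kb before Odz4, a teneurin, rank 384 lay 74.0 kb and rank 225 lay 296 kb from the Odz4 start, and neither held the Runx motif. Lrrtm3 to Reep3 (2921 kb) held rank 967, at 192 kb from Reep3. Defb7 to EG574083 (2559 kb) held rank 39 and rank 262, although GENCODE places gene starts at 0.102 kb (Gm10060) and 0.192 kb (2610005L07Rik) from them. Gbe1 to Robo1 (2093 kb) held rank 703, at 296 kb from Gbe1. The narrowest gap was that of 9.71 kb between Rgma and Chd2, where rank 456 was over 30 kb from a start because both genes turned their ends to it.

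Sequence copies touched few of these windows. No 31-base word of the window occurred elsewhere in the genome in 233 of the 252 (92.5%). Over 50% of the words were multi-copy in 2 windows, rank 174 between Fcgr1 and Txnip (54.9%) and rank 262 in the defensin gap (100%). In rank 39 the share was 40.8% and in rank 439 it was 45.1%.

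The 252 windows fell into 212 gaps, and 29 of these gaps held 2 or more and together 69 windows (27.4%). There were 22 gaps with 2 windows, 5 with 3, 1 with 4 and 1 with 6. Neighbouring windows of a gap were a median of 19.1 kb apart (0.126 to 3624 kb), with 15 of 40 steps under 10 kb and 11 over 100 kb. Windows this close may share a region, so they are not independent.

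The gap with 6 windows lay on chromosome 8 between 1810063B05Rik and Tomm20, an import receptor of the outer mitochondrial membrane, and spanned 509 kb. From left to right the windows had ranks 722, 443, 720, 508, 547 and 824, at 159, 178, 407, 414, 424 and 457 kb from the edge of 1810063B05Rik. All 6 were in the second list too, and 4 held the Runx motif. They fell into 2 groups, with 229 kb between them. The left pair lay 9.20 and 10.03 kb from the start of Irf2bp2, a transcriptional co-regulator gene that GENCODE places in this gap. Rank 508 and rank 547 each also held the AP-1 motif.

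A group of 4 windows lay within 1 kb on chromosome X, just past the end of Mid1, an E3 ubiquitin ligase of microtubules. Their ranks were 349, 75, 105 and 97 at 6.25, 6.41, 6.53 and 6.96 kb from the deposited gene end, and the steps were 0.160, 0.126 and 0.426 kb. Only rank 75 and rank 105 held the Runx motif. GENCODE extends Mid1 over all 4.

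Groups of 3 windows lay between Lhfpl3 and Srpk2, a kinase of splicing factors (ranks 169, 929 and 20, all with the motif), between Tsc22d1, a transcription factor of the TGF-beta-induced TSC22 family, and 9030625A04Rik (852, 84 and 675), and between 1700120B06Rik and Gse1 (190, 819 and 876). The same number lay between 2410131K14Rik and Med13l, a Mediator kinase module subunit (213, 621 and 423), and before Tiam2, an exchange factor for Rac (562, 668 and 939). Pairs lay beside Ets1, the founding ETS factor (ranks 347 and 568, 2.06 kb apart, with 2 and 3 Runx motifs), and between Foxd1 and Tmem174 (470 and 344). The pair of ranks 294 and 881, both with the motif, lay between Snai1, a repressor of epithelial genes, and Ube2v1, whose start was nearer. In 2 gaps, pairs faced Groucho family genes, with ranks 32 and 625 in the gap of Tle3 and ranks 816 and 313 in that of Tle1. Another pair lay between Olfm2 and Col5a3 (891 and 664).

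**Figure D4:**
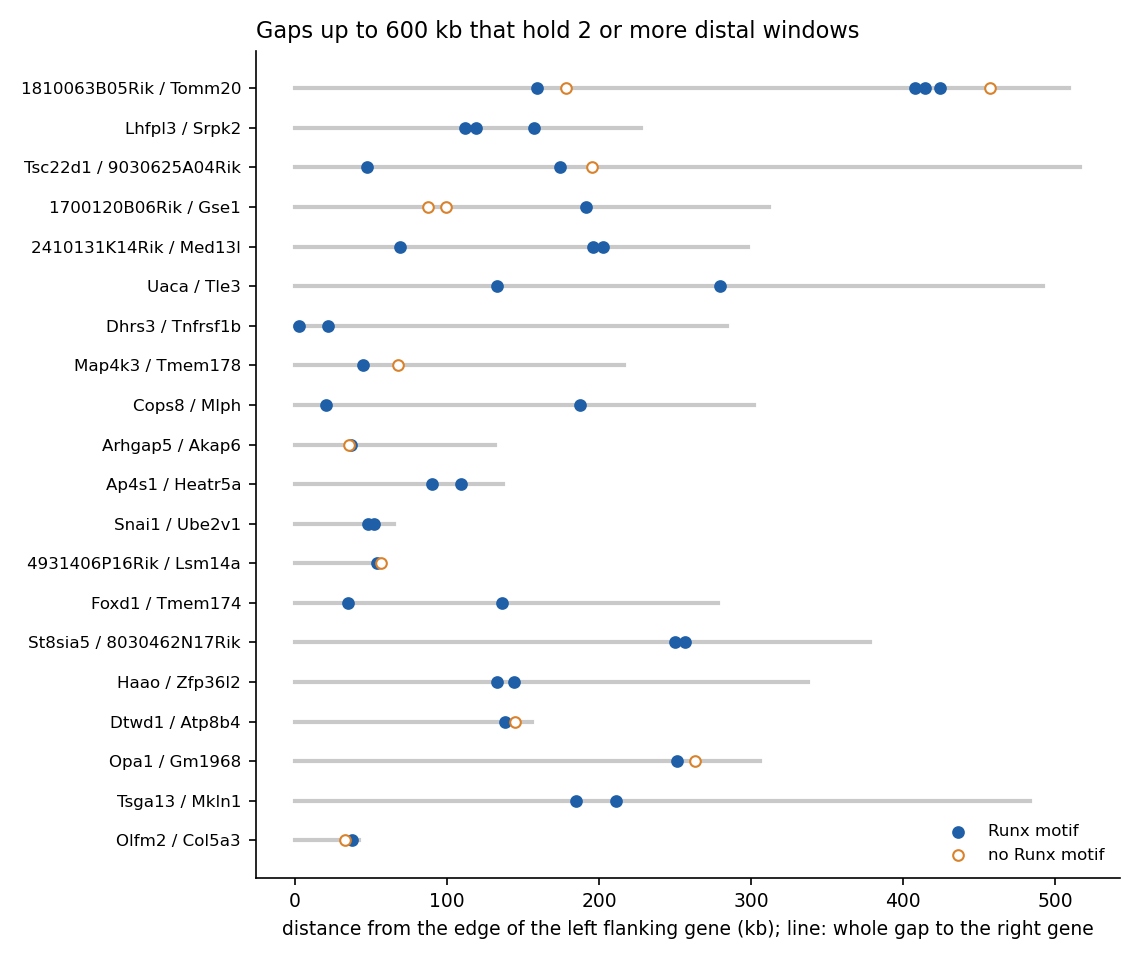
Positions of distal windows in the 20 gaps of at most 600 kb that held 2 or more and had both flanking genes given. The horizontal axis is the distance in kb from the edge of the left gene, the grey line spans the gap, and points are windows with (filled) or without (open) a Runx motif. The top line, 1810063B05Rik to Tomm20, holds 6 windows in a left pair and a right group.

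The label intergenic depended on the gene table. All 2462 deposited gene rows of the main list named NM transcripts of RefSeq, whereas the GENCODE annotation of the same build, with 37273 genes on 21 chromosomes, also holds other gene models. Of the 252 windows, 58 (23.0%) lay inside a GENCODE gene, 45 of them inside a protein-coding one, and 92 (36.5%) lay within 30 kb of a GENCODE gene start. Outside all GENCODE genes and over 30 kb from each of their starts were 135 windows (53.6%, 47.4 to 59.6). With protein-coding genes alone 183 remained (72.6%).

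There were 15 distal windows within 500 bp of a GENCODE gene start, and in 9 the nearest such start was that of a protein-coding gene. Rank 30 lay nearest to a lincRNA start and also 0.324 kb from the protein-coding start of D730045B01Rik. Rank 562 lay 11 bp from the start of Scaf8, which encodes a factor of transcript termination, although its nearest deposited start was Tiam2 at 282 kb. Rank 303 lay 52 bp from the start of Zmym4, rank 706 lay 62 bp from Sec31a, a coat protein of secretory vesicles, rank 875 lay 189 bp from Usp36 and rank 459 lay 300 bp from Prdm10. Others of the 9 were rank 87 (4632415L05Rik), rank 261 (1110034G24Rik) and rank 902 (Gm17484). These 15 windows had a median GC content of 66.3%, against 49.5% in the 135 that were distal by GENCODE as well, and 65.3% in the start-site windows. The Runx motif was in 10 of the 15 (66.7%, 41.7 to 84.8) and in 74.8% (66.9 to 81.4) of the 135.

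Among the windows inside protein-coding GENCODE genes, rank 147 lay in Col6a3, a collagen VI chain gene absent from the deposited neighbours of that window (Cops8 and Mlph). Rank 431 lay in Maml3, a Notch co-activator, rank 433 in Cacna2d3, a calcium channel subunit, rank 707 in Shb, rank 782 in Adamtsl3 and rank 202 in Jmjd1c. Rank 736 had Syne1 on both sides in the deposited table and lay inside Syne1 in GENCODE.

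The motifs of other factors were searched in the same windows, and the counts are set beside the share in all windows. AP-1, the dimer of Fos and Jun proteins (TGAGTCA), was found in 32 distal windows (12.7%, 9.14 to 17.4; 9.1% of all windows), and 26 of these 32 also held the Runx motif. SOX (ACAATG or ACAAAG) was found in 34 (13.5%; 9.2% of all), TEAD (GGAATG) in 33 (13.1%; 11.6% of all), NFI, a paired site with up to 2 mismatches, in 21 (8.33%; 7.6% of all) and C/EBP (TTGCNNAA) in 14 (5.56%; 4.3% of all). REST, with up to 3 mismatches and so a loose match, was found in 12 (4.76%; 7.4% of all), CTCF, the insulator protein, in 10 (3.97%; 4.3% of all), ETS (CCGGAA) in 7 (2.78%; 7.7% of all) and CRE (TGACGTCA) in 2 (0.794%; 1.4% of all).

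Against the other 748 windows, 2 of these 9 motifs passed the test. ETS was lower, at 2.78% against 9.36% (difference -6.58 points, -9.29 to -3.17; Fisher's exact test, two-sided, adjusted p = 0.00297 over 9 motifs). Start-site windows held ETS in 22.4%, and intragenic windows in 1.67%, below the distal share. Near intergenic windows held it in 4.10%, with no call against the distal ones (adjusted p = 0.665 by the exact test). SOX was higher, at 13.5% against 7.75% (difference 5.74 points, 1.49 to 10.8; exact test, adjusted p = 0.0365), a call that was lost against near intergenic windows alone (exact test, adjusted p = 0.665). AP-1 was at 12.7% against 7.89% (exact test, adjusted p = 0.0916). By class, AP-1 was in 12.0% of intragenic, 9.23% of near intergenic and 1.97% of start-site windows. Against near intergenic windows alone AP-1 had no call (exact test, adjusted p = 0.665). With the second list AP-1 passed (exact test, adjusted p = 0.0490) and SOX did not (0.160), and the same held in windows widened by 50 bp (0.00633 and 0.0929). For CRE, TEAD, C/EBP, NFI, CTCF and REST the adjusted p of the exact test lay between 0.159 and 0.859.

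Set against their own flanks, the distal windows gave another order. The AP-1 motif was in 12.7% of the windows and in 2.38% of the flanks on either side, with 32 windows against 6 left flanks that alone held it (exact McNemar test, adjusted p = 0.000219 over 18 comparisons) and 30 against 4 to the right (adjusted p = 0.000111). CTCF was in 10 windows, in 2 left flanks (exact McNemar test, adjusted p = 0.0992) and in no right flank (adjusted p = 0.0117). TEAD passed on the left (exact McNemar test, adjusted p = 0.0195) and not on the right (0.0992), and so did NFI (0.0337 and 0.272). SOX was in 13.5% of windows and 12.7% of the flanks, REST in 4.76% and 5.16% and ETS in 2.78% and 2.58%, with no call on either side. This comparison was chosen after the shares in the flanks had been seen.

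**Figure D5:**
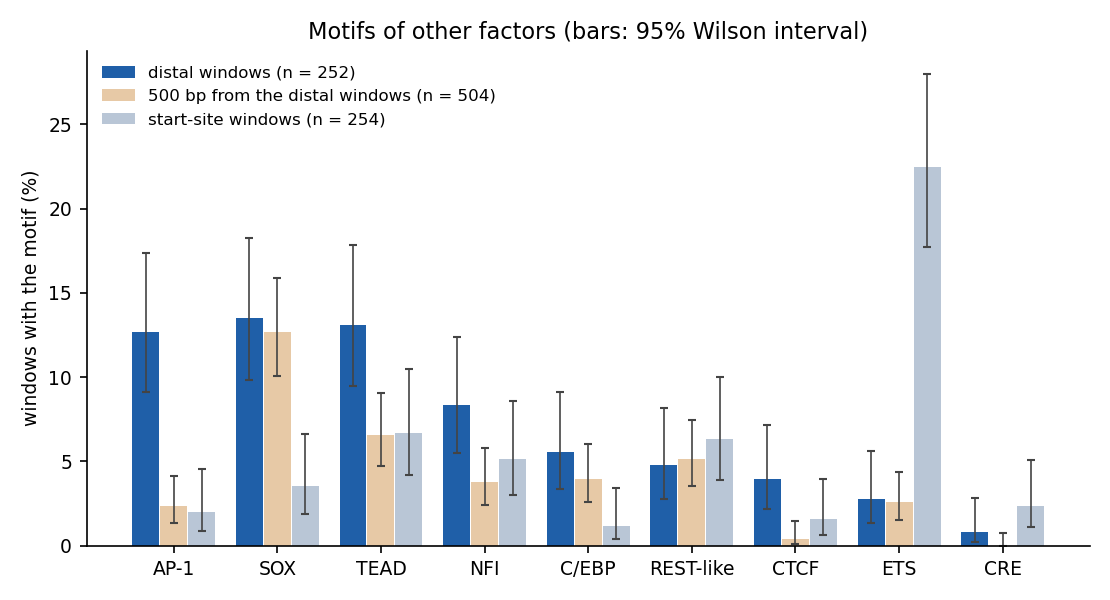
Share of windows (vertical axis, %) with the motif of 9 other factors in the distal windows, in the stretches 500 bp to each side of them and in the start-site windows, with 95% Wilson intervals. AP-1 stands at 12.7% in distal windows and at 2.38% in their flanks, SOX at about the same height in both, and ETS is highest in the start-site windows (22.4%).

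The best ranked distal windows with AP-1 were rank 70 between Map4k3 and Tmem178 and rank 112 between Hs1bp3 and Rhob. Rhob is a small GTPase gene, and its start was 49.2 kb away. Next came rank 129 between 3110009E18Rik and Steap3 and rank 157 between 1700018C11Rik and Tnfsf15. Rank 158 followed between Map3k7, which encodes the TGF-beta activated kinase, and Bach2, a leucine zipper repressor. Of these AP-1 windows, rank 129 held no Runx motif and the others held it. CTCF windows included rank 61 beside Nmur1, rank 185 beside Nedd9, a scaffold protein of focal adhesions, and rank 839 beside Hdac4, a histone deacetylase that restrains chondrocyte hypertrophy. Of the 65 distal windows without a Runx motif, 25 held at least 1 of the other motifs, and 40 held none of those searched.

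The distal windows had 412 different flanking genes, and 41 windows (16.3%, 12.2 to 21.3) were next to a gene of 10 lists. Together the lists held 459 genes, of matrix, collagens, proteases, skeletal transcription factors, AP-1, signalling, inflammation and neuronal adhesion. Over all 1000 windows the share next to a listed gene was 13.8%, and 16.9% over the near intergenic ones. No list was tested.

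Skeletal transcription factors flanked 12 distal windows (4.76%; 28 of all 1000, 2.8%), with 12 different genes. The nearest TSS was that of a listed gene in only 6 of the 12. Dlx6, a distal-less homeobox gene of skeletal development, was 61.3 kb from rank 82, and that window held 2 Runx motifs. Foxc1, a forkhead gene of skull and cartilage, was 42.0 kb from rank 490, Osr1, an odd-skipped factor of the joint region, 206 kb from rank 797, Maf 376 kb from rank 897 and Sox4 212 kb from rank 930. Rank 406 lay in the gap of 183 kb next to Runx3 itself, 134 kb before its start and nearer to Syf2, and held no Runx motif. Nfatc1 (rank 181, 158 kb from its start), Foxo1 (rank 431, 324 kb), Klf6 (rank 847, 332 kb) and Meis1 (rank 972, 722 kb) completed the list with Hes1 and Pbx3. For Nfatc1, Foxo1, Meis1, Hes1 and Pbx3 the nearest TSS was that of another gene.

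Collagen, microfibril and crosslinking genes flanked 7 distal windows (2.78%; 19 of all, 1.9%), and the nearest TSS was that of a listed gene in 3 of them. One window lay 100.7 kb before the start of Col5a1 and held the Runx motif. Rank 369 lay between Col6a2, 45.8 kb before its start, and Col6a1, 39.6 kb past its end, with 3 motifs. Rank 555 lay 471 kb before Fn1, the fibronectin gene, and 88.5 kb from Mreg. Rank 556 lay 24.5 kb past the end of Col4a1, rank 911 lay 26.9 kb past the end of Fbn2, and neither held the motif. The pair of rank 664 and rank 891 lay past Col5a3.

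Cartilage matrix genes flanked 2 distal windows (0.794%; 8 of all, 0.8%). Rank 327 lay in the gap of 116 kb between Fmod and Prelp, both small leucine-rich proteoglycans that bind collagen, at 56.1 kb before the Fmod start and 60.0 kb before the Prelp start, and held 1 Runx motif. Rank 371 lay 160 kb past the end of Matn1, which encodes a cartilage matrilin, without the motif. Among matrix proteases and their inhibitors, Timp2 alone flanked a distal window (rank 875, 10.6 kb past its end; 1 distal window, 0.397%, and 7 of all, 0.7%), the one at the GENCODE start of Usp36.

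TGF-beta and BMP genes flanked 3 distal windows (1.19%; 29 of all, 2.9%). Beside Acvr2a (rank 356) and Inhba (rank 950), rank 986 lay in the gap of 195 kb between Smad3, an effector of TGF-beta signals, and Smad6, an inhibitor of BMP signals, at 139 kb before the Smad3 start and 56.4 kb past the end of Smad6, without a Runx motif. Genes of FGF, IGF, PDGF, EGF and hedgehog signalling flanked 7 (2.78%; 16 of all, 1.6%), and the nearest TSS was that of a listed gene in 3 of them. Vegfa, a vascular growth factor gene, was next to rank 104, 41.6 kb before its start, and to rank 217, 264 kb past its end. Ptch1, the hedgehog receptor, was 206 kb from rank 191, Fgfr2 158 kb from rank 304, Errfi1, an inhibitor of the EGF receptor, 46.5 kb from rank 609, and Hhip, a hedgehog-binding protein, 257 kb from rank 698. All of these held the motif, and rank 526 beside Spry4, an inhibitor of receptor tyrosine kinase signals, did not.

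Smaller counts remained for the other lists. Ctnnb1, the beta-catenin gene, was the only Wnt gene (rank 500, 194 kb before its start; 8 of all windows), and Atf3 the only AP-1 gene (rank 596, 47.2 kb before its start; 7 of all). The inflammatory list had Csf1 (rank 454) and Cxcl12 (rank 302), against 11 of all windows. Neuronal adhesion genes flanked 5 distal windows (1.98%; 7 of all, 0.7%), those of Cdh8, Lrrtm3, Robo1 and Odz4, each in a gap of at least 2093 kb. The starts of Cdh8, Lrrtm3 and Robo1 were 2683, 2815 and 2053 kb from the window, and the other flanking gene was nearer in all 3.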

How the data were processed

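ChIP-seq libraries of transfected mouse SFZ chondrocytes were analysed, with 1 library per group (RUNX3-FLAG, IgG and input). The study's methods name bowtie for alignment to mm9 and CisGenome, with input as control, for the peaks. Which control was used for the list named for IgG is not given in the sources used here. The deposited tables listed 1000 windows per list and, per the file headers, their neighbouring genes up to 10 Mb away with distances in bp, and the rank was read as a score given by the authors. No counts were used and the depth is unknown, so precision is given over windows only. The deposited tables of nearest genes were not used.

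Deposited positions count from 0 and include both ends, and printed ones count from 1. Distances and flanking genes came from the deposited tables. Sequences came from the reference of the same build (NCBIM37), and GENCODE genes of that build were compared by their gene start and extent. Shares have Wilson intervals, differences Newcombe intervals, and p-values were adjusted by Benjamini-Hochberg within each family. Neighbouring windows are not independent. Windows shared at least 1 bp to count as shared between the lists.

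The members, gene lists and motifs were chosen with earlier results of these data known. Genes were named when they flanked the 10 best ranked or farthest windows, the widest gaps or gaps with several windows, or were in a list. Others (windows at GENCODE genes, with 3 or more motifs, with AP-1 or CTCF, or without a partner) were chosen after their values were seen. The alternatives were other distance limits, gene tables, motif spellings, window widths, flanks, ranks, overlap rules, the other list and 1 window per gap. The functions were tested on simulated data, and 14 of 14 steps passed. Scripts ran in Python 3.11.15 with scipy 1.17.1 for the tests, numpy 2.4.6 and pandas 2.3.3 for the tables, and samtools 1.23.1 with pysam 0.24.0 for the sequences. Figures were drawn with matplotlib 3.10.9.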

Additional observations from a re-analysis of the deposited data

How the results depend on the processing

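No paired analysis was possible because there was only 1 library per group. Of 175 alternative values of 34 results, 143 kept their direction and their side of the threshold or moved little. The distal share of 25.2% became 30.6% at a limit of 20 kb, 20.3% at 50 kb, 11.6% at 100 kb, 18.7% with GENCODE protein-coding genes and 13.7% with all GENCODE genes. The difference in the first ranks turned to 3.18 points for ranks 1 to 500 and to 0.363 points at 100 kb, with no call in either. Counting only identical windows as shared gave -7.64 points and a call. Of other motifs, 0 instead of 2 passed against near intergenic windows and 1 for windows distal by all GENCODE genes, an alternative added after the data were seen. With the second list and in wider windows, the SOX call was lost and one of AP-1 was gained. Directions turned for NFI (-0.496 with the second list and -0.385 against near intergenic windows), TEAD (-1.26 against the same) and CTCF (1.12 in wider windows), all without a call. With only the gene of the nearest TSS, 21 windows were next to a listed gene. Desert windows numbered 25 at 1000 kb and 42 with GENCODE protein-coding genes. The Runx motif comparisons, with flanks and with other classes, kept their calls under every alternative run. The cause of these changes was not tested, apart from the limits themselves. With 1 library and no read counts, neither the spread between cultures nor the depth behind a rank could be examined.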
